A study of Mus musculus with 5 samples.

Results

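The cells described here are 149 lung epithelial cells that carried RNA for both Krt8 and Cldn4, out of 29500 cells that passed a quality filter in 5 droplet libraries of mouse lung. A cell was taken where it had at least 3 counts of Krt8 as unique molecular identifiers (UMIs, which mark separate RNA molecules), at least 1 of Cldn4 and at least 1 of Epcam. It also had at most 1 UMI of Cdh5, Pecam1 and Col1a2 together, none of Foxj1, Ccdc153, Tmem212 or Ptprc, and fewer than 5 of Cyp2f2, conditions meant to keep out endothelial, stromal, ciliated, immune and club cells. The rule found 22 cells in lungs of Itgb1 fl/fl mice 7 days after LPS, 69 in Itgb1 iKO lungs at the same time and 2 in Itgb1 iKO lungs 7 days after PBS. At day 21 after LPS it found 7 cells in Itgb1 fl/fl and 49 in Itgb1 iKO lungs. They are called double-positive cells below, and they were compared with 2351 comparison AT2 cells, which had an Epcam UMI, at least 5% of their UMIs from Sftpc and no Cldn4 UMI.

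Alveolar type 2 (AT2) cells make surfactant and act as the progenitors of the thin type 1 (AT1) cells that carry gas exchange. After injury, cells on the way between these types pass through a state known for keratin 8, its partner keratin 18, the tight junction protein claudin 4, and targets of p53, NF-kB and TGF-beta, while surfactant genes are low. Krt8 and Krt18 encode the paired filament proteins of simple epithelia, Areg encodes amphiregulin, a ligand of the EGF receptor, and Sfn encodes 14-3-3 sigma, a p53-induced binding protein of epithelial cells.

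The study asked what β1 integrin, the product of Itgb1, does in AT2 cells during repair after intratracheal lipopolysaccharide (LPS), a bacterial product that inflames the lung. Itgb1 iKO mice carried floxed Itgb1, an SP-C promoter driven rtTA and a TetO-Cre, so that doxycycline deleted the gene in cells with an active SP-C (Sftpc) promoter, and Itgb1 fl/fl littermates lacked rtTA and Cre. Mice of both genotypes drank doxycycline when young and then water without it, and as adults had a single dose of LPS, or of PBS in 1 group of Itgb1 iKO mice, on a C57BL/6 background. Each library pooled sorted CD45-negative, Ter119-negative cells of several mice, 3 or more per group by the paper, tagged with hashtag antibodies. In each library 3 hashtags were in use, and each is called a mouse below. The day 21 libraries were enriched for EPCAM-positive cells.

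Cells that passed the quality filter held 22961007 to 29128331 UMIs per library at day 7 and 8360954 or 17620042 at day 21. The double-positive cells had medians of 7959 to 13908 UMIs and the comparison AT2 cells of 7805 to 11302.5, by library. All mice of a condition share 1 library, so library and condition cannot be told apart. The mice of the Itgb1 fl/fl day 7 library had 291 to 317 CPM of Xist (counts per 1000000 UMIs of a group of cells) and none from Y-linked genes, while those of the Itgb1 iKO LPS day 7 library had 0 to 0.299 of Xist and 147 to 157 of Y-linked genes, so genotype and sex cannot be told apart in that comparison either. Sex was mixed in the other groups. PBS mouse 1 had 199 CPM of Xist, and PBS mice 2 and 3 had 136 and 147 of Y-linked genes. At day 21 Itgb1 fl/fl mice 2 and 3 had 247 and 212 of Xist. Itgb1 iKO mouse 1 at day 21 had 145 of Xist, and mice 2 and 3 had 77.2 and 106 of Y-linked genes. Pairs of libraries shared 15 to 102 cell barcodes, and no barcode was a double-positive cell in more than 1 library.

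Itgb1, the deleted gene, stood in the double-positive cells at 454 CPM in Itgb1 fl/fl day 7, 195 in Itgb1 iKO LPS day 7, 283 in Itgb1 fl/fl day 21 and 129 in Itgb1 iKO day 21. The Itgb1 iKO levels were the lower ones at both times, and the comparison AT2 cells gave 301, 199, 364 and 156 in the same order. By mouse at day 7 the double-positive cells held 547 and 319 CPM in Itgb1 fl/fl mice 2 and 3 against 398, 131 and 211 in the Itgb1 iKO mice, so the groups overlapped. The difference was -0.61 ± 0.40 (log2, SE) in double-positive cells (edgeR quasi-likelihood test, Benjamini-Hochberg adjusted p = 0.363) and -0.54 ± 0.14 in comparison AT2 cells (adjusted p = 0.0544). The kit reads the 5′ end of RNA, and whether the deleted part lies in what it reads was not given in the sources used here. Taking a hashtag at 2 times its background gave -1.15 in double-positive cells (edgeR adjusted p = 0.0258), and DESeq2 gave an adjusted p of 0.0232 in comparison AT2 cells.

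The name alveolar intermediate was checked against marker lists. A list counted as present in a cell where its share of UMIs was above the 95th percentile of the same library's endothelial cells. For the AT1 list this limit is strict, as endothelial cells held more of it than comparison AT2 cells did. Their medians were 0.417% against 0.2145% in Itgb1 fl/fl day 7 and 0.363% against 0.277% in Itgb1 iKO LPS day 7. A cell counted as lacking AT1 markers may thus still express them. In the Itgb1 iKO LPS day 7 library 57 of 69 double-positive cells had AT2 markers, 5 had AT1 markers and 8 had neither. All 7 cells of Itgb1 fl/fl day 21 and 46 of 49 cells of Itgb1 iKO day 21 had AT2 markers. In Itgb1 fl/fl day 7, however, 18 of 22 cells had neither list, 3 had AT1 markers and 1 had AT2 markers. Nkx2-1, the transcription factor that marks lung epithelium, was found in 15 of these 22 cells. It was found in 0.740% of endothelial and 89.9% of comparison AT2 cells of the same library. With the AT1 limit this strict, the lists neither bear out nor exclude the name alveolar in that library. The cells are therefore called by the rule that chose them.

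Markers of other epithelial types were low in most cells. By the limit used above, the club list was present in 2 of 22 cells of Itgb1 fl/fl day 7 and 4 of 69 of Itgb1 iKO LPS day 7. At day 21 it was present in 1 of 7 Itgb1 fl/fl and 3 of 49 Itgb1 iKO cells. The mesothelial list was present in 3 of 22 cells of Itgb1 fl/fl day 7, at up to 0.0989% of UMIs, and in 1 of 69 of Itgb1 iKO LPS day 7. No double-positive cell held a UMI of the basal list, and a goblet marker was found in 1 cell of Itgb1 iKO day 21. The neuroendocrine list reached 5 UMIs in 2 cells of Itgb1 fl/fl day 7, both among the 8 cells of mouse 3 (1.73 and 2.37% of UMIs). It also reached 5 UMIs in 1 of the 2 PBS cells. The other PBS cell held 11.05% of its UMIs in club cell markers, with Scgb1a1, a secretory club cell product, at 104889 CPM. Ptprc was 0 by the rule, and the immune list was above its endothelial level in 44 of 69 and 43 of 49 Itgb1 iKO LPS cells and in 3 of 22 Itgb1 fl/fl day 7 cells, with Cd74, which AT2 cells also make, as its only member abundant enough to be compared. The list of cycling genes was above its endothelial limit in none of the 149 cells, and Top2a had no UMI in any of them. That limit was highest in Itgb1 iKO LPS day 7, at 0.317% of UMIs against at most 0.0606% in double-positive cells. Of these, 35 of 69 had no UMI of the list, so cells under the limit may still hold cycling genes.

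The share of double-positive cells did not separate the genotypes at either time. They made up 10.4% (22 of 211, exact 95% interval 6.65 to 15.4%) of the epithelial cells that met every condition other than those on Krt8 and Cldn4 in Itgb1 fl/fl day 7, and 12.6% (69 of 548, 9.93 to 15.7%) in Itgb1 iKO LPS day 7. The shares were 5.41% (2 of 37, 0.661 to 18.2%) in Itgb1 iKO PBS, 3.18% (7 of 220, 1.29 to 6.45%) in Itgb1 fl/fl day 21 and 3.46% (49 of 1418, 2.57 to 4.54%) in Itgb1 iKO day 21. Times differ in enrichment for EPCAM-positive cells, and the intervals cover counting error only.

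By mouse, the share was 1.35% (1 of 74), 17.8% (8 of 45) and 19.5% (8 of 41) in Itgb1 fl/fl day 7, and 14.1% (10 of 71), 16.3% (25 of 153) and 10.2% (9 of 88) in Itgb1 iKO LPS day 7. The Itgb1 iKO mice lay inside the range of the Itgb1 fl/fl mice, of which mouse 1 stood far below the other two. The means were 13.6 ± 3.09% and 12.9 ± 10.0% (SD, n = 3 mice each), a difference of 0.670 percentage points (exact permutation test, two-sided, p = 1). Without Itgb1 fl/fl mouse 1 this difference was -5.09. PBS-treated Itgb1 iKO mice had shares of 0 (0 of 7), 0 (0 of 2) and 8.33% (1 of 12), each below every LPS-treated Itgb1 iKO mouse. That difference was 10.8 percentage points (exact permutation test, two-sided, p = 0.1, adjusted 0.367 over 11 comparisons of shares), and 0.1 is the smallest p that 3 against 3 mice allow.

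At day 21 the shares were 0 (0 of 42), 4.65% (2 of 43) and 5.06% (4 of 79) in Itgb1 fl/fl and 5.48% (17 of 310), 2.13% (6 of 282) and 3.23% (11 of 341) in Itgb1 iKO mice. These groups overlapped (difference 0.374 percentage points, exact permutation test, two-sided, p = 0.8). The hashtag of Itgb1 fl/fl mouse 1 held both 92.5 CPM of Xist and 83.2 of Y-linked genes. Whether it stands for 1 mouse was not tested, and without it the difference was -1.24. Drawing 3000 UMIs from each cell lowered every share but that of Itgb1 fl/fl day 7, to 11.9% (16 of 135) there, 5.12% (20 of 391) in Itgb1 iKO LPS day 7 and 0.488% (5 of 1024) in Itgb1 iKO day 21, with 0 of 148 in Itgb1 fl/fl day 21.

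**Figure D1:**
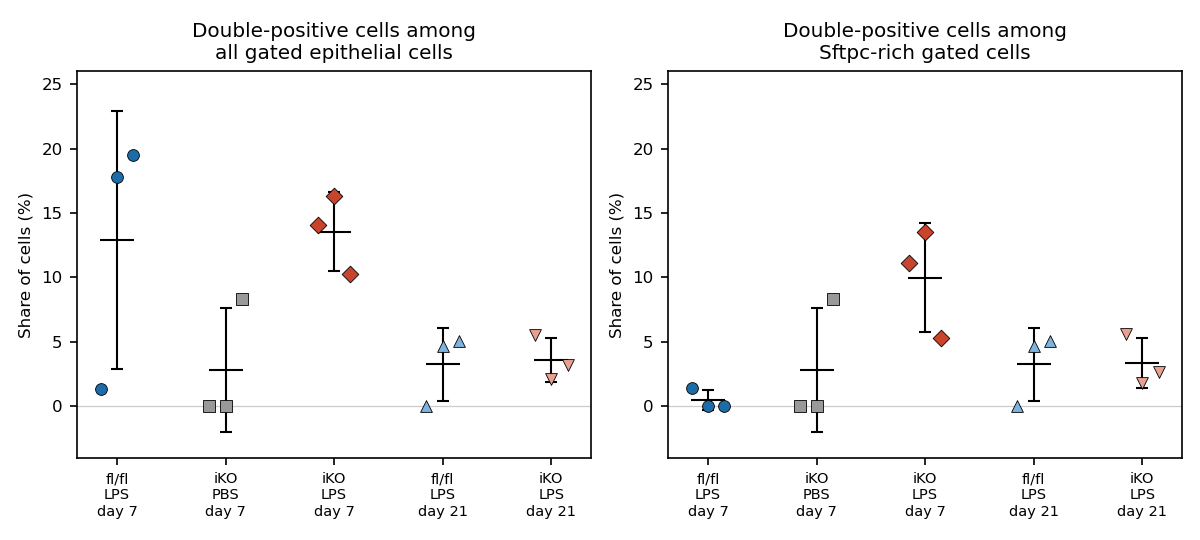
Share of double-positive cells (%) by mouse in each of the 5 libraries, among all gated epithelial cells on the left and among gated cells with at least 5% of UMIs from Sftpc on the right, with points for mice and bars for mean ± SD (n = 3). Among all gated cells the day 7 LPS genotypes overlap, while among Sftpc-rich cells the 3 Itgb1 iKO mice (5.26 to 13.5%) lie above the 3 Itgb1 fl/fl mice (0 to 1.39%).

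Sftpc, the gene for surfactant protein C, split the double-positive cells into groups that the rule did not set. Its share of a cell's UMIs had a median of 0.0362% in Itgb1 fl/fl day 7, 12.4% in Itgb1 iKO LPS day 7, 20.9% in Itgb1 fl/fl day 21 and 20.4% in Itgb1 iKO day 21. Endothelial cells of these libraries, which do not make it, had medians of 0.112%, 0.266%, 0.230% and 1.34%. The median of the Itgb1 fl/fl day 7 cells was thus under that of cells with no Sftpc expression of their own, and those of the other LPS libraries were far above it.

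With the 5% level of the comparison AT2 cells as a limit, 1 of 22 cells in Itgb1 fl/fl day 7 was Sftpc-rich, 50 of 69 in Itgb1 iKO LPS day 7, 7 of 7 in Itgb1 fl/fl day 21 and 45 of 49 in Itgb1 iKO day 21. Few cells lay near the limit: 4 cells of Itgb1 iKO LPS day 7 had 1 to 5%, and 8 had 5 to 10%. Among Sftpc-rich gated cells, double-positive cells made up 0.599% (1 of 167, exact 95% interval 0.0152 to 3.29%) in Itgb1 fl/fl day 7 and 10.2% (50 of 488, 7.70 to 13.3%) in Itgb1 iKO LPS day 7. By mouse the share was 1.39, 0 and 0% in Itgb1 fl/fl against 11.1, 13.5 and 5.26% in Itgb1 iKO mice. Every Itgb1 iKO mouse lay above every Itgb1 fl/fl mouse, with a difference of 9.51 percentage points (exact permutation test, two-sided, p = 0.1, the smallest possible, adjusted 0.367). It was 5.19 with at least 2 Cldn4 UMIs required and 2.83 in cells thinned to 3000 UMIs. At day 21 the difference was 0.112 percentage points (exact permutation test, two-sided, p = 1).

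The split followed the mice in Itgb1 fl/fl day 7. The single double-positive cell of mouse 1 held 23.4% of its UMIs in Sftpc, and the 8 cells each of mice 2 and 3 were all Sftpc-poor. In Itgb1 iKO LPS day 7, 30, 28 and 55.6% of the double-positive cells of the 3 mice were Sftpc-poor, so every mouse held both kinds. The mean Sftpc-poor share was lower in Itgb1 iKO by 28.8 points (difference -28.8, exact permutation test, two-sided, p = 0.4). It was -62.1 without Itgb1 fl/fl mouse 1, whose share rests on 1 cell, and -12.1 without Itgb1 fl/fl mouse 2. Among the gated cells that were Sftpc-poor, double-positive cells were 21 of 44 in Itgb1 fl/fl day 7, 19 of 60 in Itgb1 iKO LPS day 7, 0 of 2 in Itgb1 fl/fl day 21 and 4 of 17 in Itgb1 iKO day 21.

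**Figure D2:**
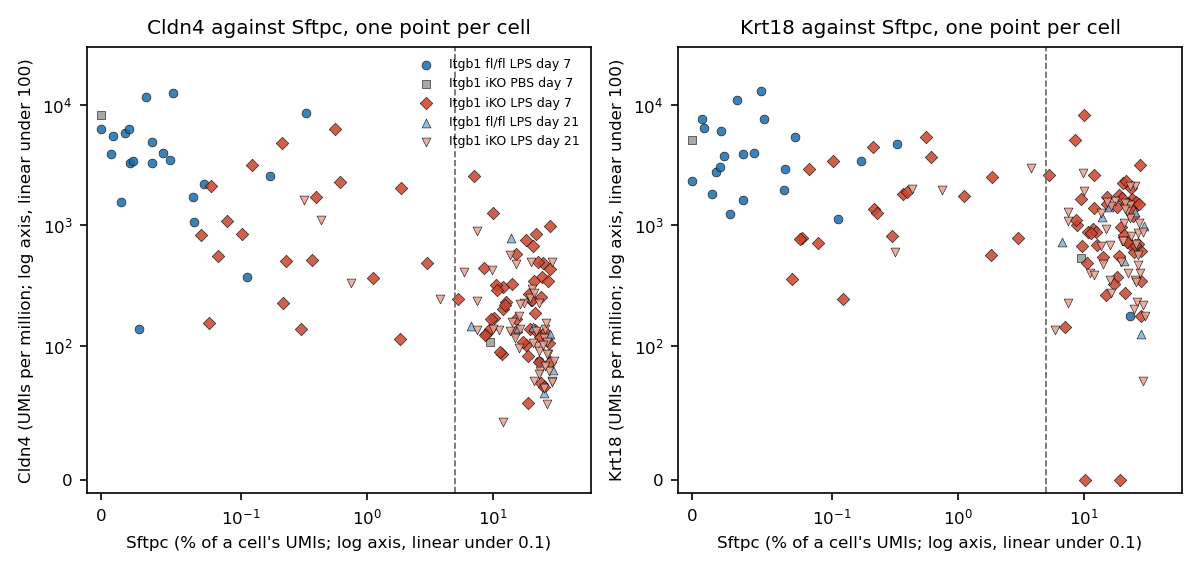
Cldn4 (left) and Krt18 (right) in CPM against the Sftpc share of UMIs (%) for each of the 149 double-positive cells, coloured by library, on log axes that are linear near 0, with a dashed line at 5% Sftpc. Of the cells of Itgb1 fl/fl day 7, 21 of 22 sit left of the line, most of them at high Cldn4, and 50 of 69 cells of Itgb1 iKO LPS day 7 sit right of it.

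Cldn4 and Krt8 were used to choose the cells, and their levels are given as a description. Cldn4 stood at 4646 CPM in Itgb1 fl/fl day 7, 567 in Itgb1 iKO LPS day 7, 248.6 in Itgb1 fl/fl day 21 and 233 in Itgb1 iKO day 21, with medians of 28.5, 2, 1 and 1 UMIs per cell. Krt8 stood at 1579, 819, 622 and 566 CPM in the same order, against 201, 296, 132 and 211 in comparison AT2 cells. Most cells outside Itgb1 fl/fl day 7 were therefore close to the limit of the rule for Cldn4. In all, 69 cells had exactly 1 Cldn4 UMI, of which 63 were Sftpc-rich, and 619 gated cells with at least 3 Krt8 UMIs had none. In Itgb1 iKO LPS day 7, Sfn was at 575 CPM in the 29 cells with 1 Cldn4 UMI and at 250 in the 164 cells with none, and Krt18 at 1098 and 834. At the Krt8 limit of the same library, the 13 cells with 3 UMIs had Krt18 at 999 and Areg at 1988 CPM, and the 17 cells with 2 Krt8 UMIs and Cldn4 had 746 and 1154.

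The other marker genes of the state were above the comparison AT2 cells in every LPS library, and highest in Itgb1 fl/fl day 7 for all but Areg. Krt18 was at 4517, 1457, 972 and 920 CPM in double-positive cells of Itgb1 fl/fl day 7, Itgb1 iKO LPS day 7, Itgb1 fl/fl day 21 and Itgb1 iKO day 21, against 431, 596, 332 and 489 in comparison AT2 cells. Sfn was at 1471, 673, 520 and 458 against 151, 173, 48.0 and 151. Areg was at 1282, 1870, 1446 and 1289 against 284, 773, 287 and 655, and was higher in double-positive cells in each of the 8 mice with at least 5 of them. In the mm10 build Krt8 (chr15:101996698-102004482, minus strand) and Krt18 (chr15:102028180-102032027, plus strand) are neighbours, Cldn4 lies at chr5:134945119-134946934 (minus), Areg at chr5:91139599-91148432 (plus) and Sfn at chr4:133600556-133602168 (minus).

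Genes were then set against the comparison AT2 cells in the 3 libraries with at least 20 double-positive cells, which are both day 7 LPS libraries and Itgb1 iKO day 21. These cells were chosen by their Krt8, Cldn4 and Sftpc counts, so the ratios are a description. Of 2567 genes, 14 were at least 2-fold higher in each library (0.545% of genes) and 2 at least 2-fold lower (0.0779%), with 10 CPM added to each level. The 14 were Sprr1a, S100a6, F3, Lgals3, Anxa1, Krt19, Krt7, 2200002D01Rik, Myc, Sfn, Tnfrsf12a, Ndnf, Fosl1 and Nfkbia, and the 2 were Acoxl and Retnla. Over all genes the median log2 ratios were 0.44 in Itgb1 fl/fl day 7, 0.12 in Itgb1 iKO LPS day 7 and 0.05 in Itgb1 iKO day 21.

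Sprr1a, a cornified envelope protein of squamous and injured epithelium, was furthest above the AT2 cells. It was at 1736 CPM in Itgb1 fl/fl day 7, 255 in Itgb1 iKO LPS day 7 and 170 in Itgb1 iKO day 21, against 0.483, 4.50 and 18.3, which gave log2 ratios of 7.38, 4.19 and 2.66. It was higher in 6 of the 8 mice. In Itgb1 fl/fl day 21, where it reached 4147 CPM, 362 of its UMIs came from 1 cell.

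S100a6, a calcium-binding protein, was at 6074, 831 and 315 CPM in the same 3 libraries, against 45.9, 76.5 and 48.8 in comparison AT2 cells. F3, the gene for tissue factor, which starts coagulation, had log2 ratios of 5.28, 2.26 and 1.61. Anxa1, a phospholipid-binding protein of inflamed epithelium, had 4.88, 1.28 and 1.69, and Lgals3, a galectin, had 5.12, 1.37 and 2.12. The partner keratins Krt19 and Krt7 had 4.29, 2.44 and 1.09, and 3.74, 1.67 and 1.25. For each of these 6 genes the ratio of Itgb1 fl/fl day 7 was the highest of the 3.

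Promoters are printed for 3 genes chosen because their window held the AP-1 motif, which factors of the FOS and JUN families bind. Cldn4 defines the cells, and Sprr1a and F3 are among the genes with the highest ratios. Krt8, which also defines the cells, and S100a6, with a higher ratio than F3, had no match and are not printed. Each is the 250 bases before the RefSeq start in GRCm38.p6, 5′ to 3′ on the gene's strand, with matches to TGANTCA in capitals. The windows are chr5:134946935-134947184 (minus) for Cldn4, chr3:92485882-92486131 (minus) for Sprr1a and chr3:121723287-121723536 (plus) for F3.
Cldn4: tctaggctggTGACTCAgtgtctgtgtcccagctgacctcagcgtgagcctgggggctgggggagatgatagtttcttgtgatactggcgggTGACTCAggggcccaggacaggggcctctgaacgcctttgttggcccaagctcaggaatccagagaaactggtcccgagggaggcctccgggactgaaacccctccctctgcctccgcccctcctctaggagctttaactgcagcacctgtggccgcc
Sprr1a: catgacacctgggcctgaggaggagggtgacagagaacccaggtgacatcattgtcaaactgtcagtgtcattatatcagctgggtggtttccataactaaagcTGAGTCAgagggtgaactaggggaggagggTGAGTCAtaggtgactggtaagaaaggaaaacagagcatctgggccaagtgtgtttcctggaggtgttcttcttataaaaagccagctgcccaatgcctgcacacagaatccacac
F3: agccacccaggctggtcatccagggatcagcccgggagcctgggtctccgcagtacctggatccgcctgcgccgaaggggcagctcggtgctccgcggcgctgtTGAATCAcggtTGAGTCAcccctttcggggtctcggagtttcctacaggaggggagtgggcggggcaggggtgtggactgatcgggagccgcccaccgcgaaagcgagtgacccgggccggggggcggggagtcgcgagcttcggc
The matches begin at -240 and -158 in Cldn4, at -146 and -116 in Sprr1a and at -146 and -135 in F3, counted from the start. TGANTCA, searched on both strands, was in 6.73% of all 32536 promoters of this length (2189). Of the 5 marker genes, Cldn4 alone had it, and of the 15 genes highest in double-positive cells 11 had a promoter in the table and 3 of them a match (Sprr1a, F3 and 2200002D01Rik). Of the 15 lowest, all had a promoter and 2 had a match, Sftpb and Adam19, the second in 1 of its 3 windows. GGAATG, the letters read by TEAD factors, was in 12.6% of all promoters (4091), in Anxa1 among the 11, in Adam19, Slc34a2 and Lyz1 among the 15 lowest, and in none of the 5 marker genes. The printed windows hold no GGAATG, and a match is a description of letters only.

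**Figure D3:**
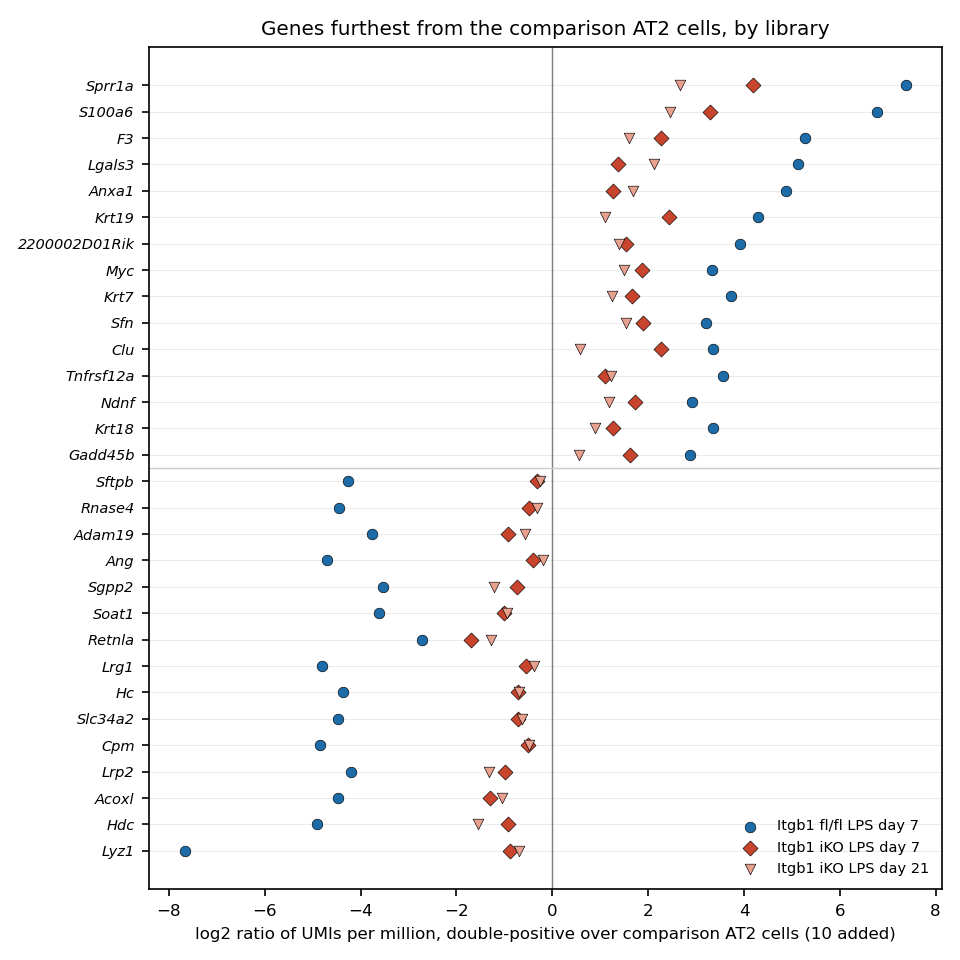
log2 ratio of CPM in double-positive over comparison AT2 cells (10 added to each) for the 15 genes furthest above and the 15 furthest below, with a point for each of 3 libraries. Itgb1 fl/fl day 7 lies outermost for all 30 genes, as for Sprr1a (7.38 against 4.19 and 2.66) and Lyz1 (-7.66 against -0.89 and -0.70).

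The gene lists gave the following counts in this contrast. Of the genes named for alveolar intermediate states in other injury models, 8 of 17 measured were 2-fold higher in each library, with a median log2 ratio of 1.57 against 0.197 for all genes. The keratin and desmosome list had 2 of 8 higher (median 0.74), the AP-1 and immediate early list 2 of 21 (Myc and Fosl1, 0.25), the NF-kB list 1 of 12 (Nfkbia, 0.39) and the YAP and TEAD target list 1 of 6 (F3, 0.53). The p53 target list had 0 of 11 (median 1.06), tight junctions 0 of 11 (0.78), actin cytoskeleton genes 0 of 43 (0.57), TGF-beta signalling 0 of 9 (0.46) and EGF receptor ligands and receptors 0 of 4 (0.48). These lists were above the comparison AT2 cells at the median, and most of their members stayed under 2-fold in at least 1 library.

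Surfactant and lamellar body genes were below the AT2 cells mainly in Itgb1 fl/fl day 7. None of 15 was 2-fold lower in each library, and their median log2 ratio was -2.94 in Itgb1 fl/fl day 7 and -0.33 in both Itgb1 iKO libraries. Sftpb, a surfactant protein, had -4.27, -0.32 and -0.26, and Slc34a2, the phosphate transporter of AT2 cells, had -4.47, -0.71 and -0.64. MHC class II genes, which AT2 cells express, had medians of -1.49 in Itgb1 fl/fl day 7 and of 0.36 and 0.33 in the Itgb1 iKO libraries. Acoxl, an acyl-CoA oxidase-like gene of AT2 cells, was lower in all 8 mice (-4.47, -1.31 and -1.05), and Retnla, a secreted resistin-like protein, had -2.71, -1.69 and -1.28.

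The pattern was smaller once only Sftpc-rich cells were used. In the 2 Itgb1 iKO LPS libraries, 5 genes were then at least 2-fold higher in each (Anxa1, F3, Fosl1, Sfn and Sprr1a), against 14 with all double-positive cells of these 2 libraries. Sprr1a had log2 ratios of 3.19 at day 7 and 1.04 at day 21, F3 of 2.17 and 1.46, Sfn of 1.56 and 1.09 and Anxa1 of 1.08 and 1.42. Of the Sprr1a UMIs in these Sftpc-rich cells 1 cell held 37 of 62 at day 7 and 1 cell 15 of 22 at day 21, and 42 of 50 and 40 of 45 cells had none. Krt18 had 1.14 and 0.81, S100a6 1.93 and 0.32, and Clu, a secreted chaperone, 1.13 and 0.55. Double-positive cells with AT2 levels of Sftpc thus still held more F3, Sfn, Anxa1 and Krt18 RNA than AT2 cells without Cldn4 in the same library.

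Within Itgb1 iKO LPS day 7, the 19 Sftpc-poor cells held more of the state's genes than the 50 Sftpc-rich cells. Cldn4 was at 1391 against 340 CPM, Sfn at 1190 against 531 and Clu at 5707 against 867. S100a6 was at 2689 against 320, Sprr1a at 739 against 122 and Cdkn1a, the cell cycle inhibitor p21, at 538 against 103. Of genes known from AT1 cells, Ager, the receptor for advanced glycation end products, was at 2187 against 1271, while Aqp5, a water channel, was at 839 against 813. Hopx, a transcriptional cofactor, was at 437 against 81.0, with 376 in endothelial cells of that library, and Cldn18, a lung tight junction protein, was at 3549 against 1171. Cells of all mice of that library are pooled in these values, and no test was made.

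At LPS day 7 the double-positive cells of the genotypes differed in many genes. Counts were summed per mouse for the 3 Itgb1 iKO mice (10, 25 and 9 cells) and for Itgb1 fl/fl mice 2 and 3 (8 cells each), and Itgb1 fl/fl mouse 1, with 1 cell, was not used. Of 2121 genes, 183 (8.63%) were higher and 66 (3.11%) lower in Itgb1 iKO by edgeR's quasi-likelihood test at an adjusted p under 0.05, 11.7% in all, and the mice of the groups did not overlap in 43% of genes. The cells of both Itgb1 fl/fl mice were all Sftpc-poor and those of the Itgb1 iKO mice mixed, so the genotype and the share of Sftpc-rich cells cannot be told apart in this fit. With Sftpc-poor cells only, which left 2 mice per genotype and 985 genes, 7 genes were higher and 0 lower (edgeR). With 1 mouse left out 108 to 182 genes were higher and 18 to 49 lower, with 108 higher without Itgb1 fl/fl mouse 2, 113 higher and 18 lower without Itgb1 iKO mouse 2, 36 lower without Itgb1 fl/fl mouse 3 and 34 lower without Itgb1 iKO mouse 3.

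Surfactant genes were far higher in Itgb1 iKO. Sftpc was at 108174, 159626 and 126483 CPM in the Itgb1 iKO mice against 313 and 303 in the Itgb1 fl/fl mice (log2 difference 9.05 ± 0.57, SE, edgeR adjusted p = 3.3e-07). Sftpa1, surfactant protein A, was at 13285, 28510 and 15224 against 65.1 and 112 (8.09 ± 0.59, edgeR adjusted p = 1.26e-06). Every Itgb1 iKO mouse was far above both Itgb1 fl/fl mice for these genes. In comparison AT2 cells of the same mice Sftpc did not pass the test (-0.06 ± 0.13, edgeR adjusted p = 0.908), as its level chose those cells, and Sftpa1 fell by 0.46 on the log2 scale (edgeR adjusted p = 0.0494), which passed with all mice but not without any 1 of them (0.0618 to 0.239).

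Of the surfactant and lamellar body list, 13 of 15 measured genes rose in Itgb1 iKO and none fell (median log2 difference 4.17 against -0.04 for all genes), and of the AT2 marker list 12 of 12 rose (6.23). Slc34a2 rose by 7.27 ± 0.67, Lyz2, lysozyme of AT2 cells and macrophages, by 7.44 ± 0.86, and Hc, complement component C5, by 7.47 ± 0.76. Cpm, a carboxypeptidase, Ptgs1, a prostaglandin synthase, Matn4, Chia1 and Apoe were at 0 UMIs in both Itgb1 fl/fl mice. They passed the filter on low counts through Itgb1 iKO mice alone, so their values are a description. Against a floor of 3 UMIs over the group they were at least 11.7-, 7.55-, 7.04-, 6.22- and 6.12-fold higher in Itgb1 iKO. In Sftpc-poor cells alone the 7 genes that rose were Sftpc (4.92), Sftpa1 (7.65), Sftpb (4.59), Slc34a2 (6.39), Abca3 (4.07), Ank3 (4.36) and Egfl6 (5.19). Sftpc itself cut this class, and of 737 Sftpc UMIs in the 12 Itgb1 iKO cells used, 593 came from 3 cells with 1.11 to 3.02% Sftpc, so its value there is a description.

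MHC class II genes, which present antigen to T cells, rose together. Of 7 measured, 6 were higher in Itgb1 iKO and none lower (median 3.31). H2-Aa was at 2934, 3507 and 1878 CPM in the Itgb1 iKO mice against 143 and 207 in Itgb1 fl/fl (4.31 ± 0.41, edgeR adjusted p = 1.09e-05). Cd74, the invariant chain, was at 19272, 14067 and 9886 against 1733 and 3665 (2.73 ± 0.41, edgeR adjusted p = 0.000643). Every Itgb1 iKO mouse was above both Itgb1 fl/fl mice for H2-Aa and for Cd74. In Sftpc-poor cells alone 0 of 4 measured passed the test, at a median of 3.04, and the Sftpc-poor Itgb1 iKO cells held 3083 CPM of H2-Aa against 2594 in the Sftpc-rich ones.

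Ligands and feedback genes of the EGF receptor were higher in Itgb1 iKO (3 of 4 measured, none lower, median 1.75). Hbegf, heparin-binding EGF, was at 355, 443 and 219 CPM against 130 and 31.9 (2.33 ± 0.54, edgeR adjusted p = 0.0133). Errfi1, an EGF-induced inhibitor of the receptor, was at 924, 1160 and 1187 against 248 and 239 (2.48 ± 0.33, edgeR adjusted p = 0.000233). For both genes the mice of the genotypes did not overlap, and in comparison AT2 cells neither passed the test (-0.25 ± 0.23, edgeR adjusted p = 0.721, and 0.10 ± 0.18, edgeR adjusted p = 0.886). Areg was at 3053, 1209 and 2501 against 1381 and 1052, and these mice overlapped. It passed the test narrowly (1.17 ± 0.36, edgeR adjusted p = 0.0485) and rose in comparison AT2 cells too (1.07 ± 0.25, edgeR adjusted p = 0.0314), but it passed in double-positive cells only with all mice or without Itgb1 iKO mouse 2, and without any of the other 4 mice its adjusted p was 0.0747 to 0.188. Areg had 0.62 (edgeR adjusted p = 0.276) with a hashtag at 2 times its background, and adjusted p of 0.0656 with 5 Krt8 UMIs, 0.0769 without neuroendocrine cells and 0.0713 with the 2 groups alone. In comparison AT2 cells Areg passed only with all mice or without Itgb1 iKO mouse 3. Hbegf had an edgeR adjusted p of 0.0671 in double-positive cells without Itgb1 fl/fl mouse 3. In Sftpc-poor cells alone 0 of 3 measured genes of this list passed (Hbegf 1.5, edgeR adjusted p = 0.317).

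Genes that the p53 transcription factor induces after DNA damage or stress were lower in Itgb1 iKO, with 5 of 15 measured falling and none rising (median -1.15), and 2 to 4 falling when 1 mouse was left out, fewest without Itgb1 fl/fl mouse 3 or Itgb1 iKO mouse 3. Cdkn1a was at 107, 270 and 160 CPM in the Itgb1 iKO mice against 1485 and 1020 in Itgb1 fl/fl (-2.39 ± 0.37, edgeR adjusted p = 0.000786). Mdm2, the ubiquitin ligase that degrades p53, was at 64.5, 57.4 and 33.7 against 234 and 191 (-1.69 ± 0.46, edgeR adjusted p = 0.0278). No Itgb1 iKO mouse reached the lower Itgb1 fl/fl mouse for either gene. Cdkn1a passed whichever mouse was left out (edgeR adjusted p of at most 0.00759), while Mdm2 passed only with all mice or without Itgb1 iKO mouse 1 (0.0562 to 0.232 without another). Aen, an apoptosis nuclease, Phlda3, an AKT inhibitor, and Ccng1, cyclin G1, fell by 2.60, 1.96 and 1.89 on the log2 scale, of which Aen missed the threshold without either Itgb1 fl/fl mouse, Phlda3 without Itgb1 fl/fl mouse 3 or Itgb1 iKO mouse 1 or 3, and Ccng1 without Itgb1 iKO mouse 3. With Sftpc-poor cells only, 0 of 12 passed at a median of -0.17, and Cdkn1a had -0.83 (edgeR adjusted p = 0.59).

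Of the genes named for intermediate states in other models, 7 of 22 measured fell in Itgb1 iKO and 2 rose (median -0.70), with 2 to 6 falling when 1 mouse was left out. Lgals3 was at 387, 193 and 396 CPM in the Itgb1 iKO mice against 2866 and 877 (-2.27 ± 0.68, edgeR adjusted p = 0.045), and Anxa1 at 1688, 815 and 1255 against 6240 and 2900 (-1.59 ± 0.41, edgeR adjusted p = 0.0245). Both were higher in both Itgb1 fl/fl mice, with mouse 2 the highest. Without that mouse the edgeR adjusted p was 0.396 for Lgals3 and 0.265 for Anxa1, and without Itgb1 iKO mouse 2 or 3 it was 0.149 and 0.0995 for Lgals3 and 0.0927 and 0.0767 for Anxa1. Without Itgb1 iKO mouse 1 it was 0.0764 for Lgals3. Nupr1, a stress-induced chromatin protein, fell by 2.55, Plaur, the urokinase receptor, by 2.44 and Tnfrsf12a, the TWEAK receptor, by 1.35, while Hbegf and Cyr61, a matricellular YAP target, rose by 2.33 and 1.49. Without Itgb1 fl/fl mouse 2 Nupr1 had -0.72 (edgeR adjusted p = 0.423) and Plaur -1.73, and without Itgb1 fl/fl mouse 3 Tnfrsf12a had -0.82 (0.343) and Cyr61 0.98 (0.225). Plaur also missed the threshold without Itgb1 iKO mouse 1 or 2, Tnfrsf12a without Itgb1 iKO mouse 2 or 3 and Cyr61 without any Itgb1 iKO mouse. None of the genes of this list passed with Sftpc-poor cells only (0 of 19).

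Several leading genes of the state did not pass the test between genotypes. Krt18 was at 2429, 1053 and 1659 CPM in the Itgb1 iKO mice against 3439 and 4398 (-0.91, edgeR adjusted p = 0.079), and Sfn at 591, 701 and 834 against 1654 and 1450 (-0.82, edgeR adjusted p = 0.149). The mice did not overlap for Krt18 and Sfn, and without Itgb1 iKO mouse 1 Krt18 had -1.15 (edgeR adjusted p = 0.0271) and Krt7 -1.23 (0.0415). With a hashtag taken at 2 times its background Krt18 had -1.47 (edgeR adjusted p = 0.00403). S100a6 was at 1193, 389 and 1895 against 7308 and 1912 (-1.73, edgeR adjusted p = 0.204), Krt7 at 1913, 320 and 775 against 1746 and 1498 (-0.45, edgeR adjusted p = 0.603), and Sprr1a had -1.95 (edgeR adjusted p = 0.268).

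**Figure D4:**
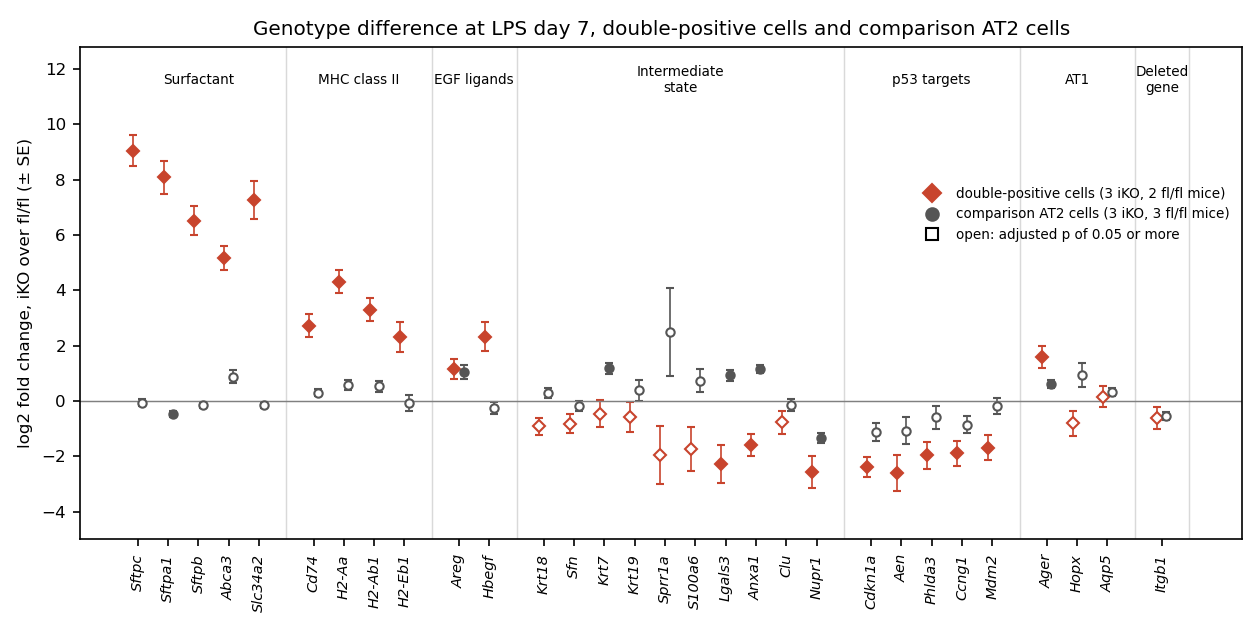
log2 fold change between Itgb1 iKO and Itgb1 fl/fl at LPS day 7 with its SE, for named genes in double-positive cells (diamonds, 3 against 2 mice) and comparison AT2 cells (circles, 3 against 3 mice), open where the edgeR adjusted p was 0.05 or more. Surfactant genes reach 9.05 (Sftpc) in double-positive cells and lie near 0 in comparison AT2 cells, and the 5 p53 targets lie below 0 in both and pass the test in double-positive cells alone, with no p53 target passing the test of the difference between the effects (Cdkn1a edgeR adjusted p = 0.27).

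Of 8 AT1 markers measured, 1 rose in Itgb1 iKO and none fell. Ager was at 2709, 1151 and 1575 CPM in the Itgb1 iKO mice against 482 and 988 in Itgb1 fl/fl (1.59 ± 0.39, edgeR adjusted p = 0.0182). Every Itgb1 iKO mouse was above both Itgb1 fl/fl mice, and Ager also rose in comparison AT2 cells (0.62, edgeR adjusted p = 0.0179, and 0.0552 to 0.12 without Itgb1 fl/fl mouse 1 or Itgb1 iKO mouse 1 or 3). Without Itgb1 fl/fl mouse 2 it had 1.21 in double-positive cells (edgeR adjusted p = 0.109). Hopx was at 312, 156 and 160 against 573 and 287 (-0.80, edgeR adjusted p = 0.29) and Aqp5 at 1139, 783 and 741 against 599 and 1371 (0.16, edgeR adjusted p = 0.839). Hopx stood at 445 and 376 CPM in endothelial cells of these libraries, above its 411 and 158 in double-positive cells. Whether the endothelial level is free RNA was not tested. In Itgb1 iKO LPS day 7, 6 of 19 Sftpc-poor and 30 of 50 Sftpc-rich double-positive cells had no Hopx UMI. Col4a3, a basement membrane collagen of AT1 cells, was at 43.3 and 40.2 CPM in the 2 libraries and fell under the filter on low counts.

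Immediate early genes rose in part, with 7 of 20 measured higher in Itgb1 iKO (Nr4a1, Fosb, Zfp36, Klf2, Klf6, Atf3 and Dusp1), 1 lower (Ier5) and a median of 0.68. Nr4a1, a stress-induced nuclear receptor, was at 591, 586 and 446 CPM against 117 and 143 (2.37 ± 0.45, edgeR adjusted p = 0.00381), and Atf3 at 3117, 2315 and 2055 against 1511 and 1163 (1.20 ± 0.29, edgeR adjusted p = 0.0182). The mice did not overlap for Nr4a1 and Atf3, and Atf3 had an adjusted p of 0.0966 without Itgb1 fl/fl mouse 3 and 0.74 (edgeR adjusted p = 0.137) with a hashtag at 2 times its background. In Sftpc-poor cells alone 0 of 16 passed, and Atf3 had -0.11.

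Counts for the other lists follow, where 8.63% of all 2121 genes were higher and 3.11% lower. Acute phase and activated AT2 genes had 4 of 8 higher (Lyz2, Lrg1, Hp and Il33), lineage factors 2 of 15 (Etv5 and Nkx2-1), developmental signalling 2 of 3 (Spry1 and Fgfr2), NRF2 and glutathione 2 of 14, laminins and basement membrane 1 of 6 (Npnt) and club cell markers 1 of 2 (Hp). The integrated stress response had 1 higher and 2 lower of 7, glycolysis and hypoxia 2 lower of 12, senescence 2 lower of 7, the actin cytoskeleton 1 higher and 2 lower of 43, tight junctions 1 lower of 11 (Cldn7) and keratins and desmosomes 1 lower of 9 (Krt23). By edgeR none passed of 13 NF-kB, 8 TGF-beta, 11 adherens junction, 3 integrin and 1 interferon genes, and 1 of 5 YAP and TEAD targets rose (Cyr61). Over all 2121 genes 519 had an unadjusted p under 0.05.

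The genes that fell furthest in Itgb1 iKO double-positive cells were mostly rare. Gm8797, a predicted gene, was at 0, 12.3 and 8.42 CPM against 182 and 367 (-4.46 ± 0.60, edgeR adjusted p = 0.000254), and it fell as far in comparison AT2 cells (-4.39 ± 0.27, edgeR adjusted p = 3.55e-10). AW112010, a lymphoid and interferon-induced transcript, was at 10.7, 24.6 and 33.7 against 352 and 526 (-3.79), and Ecm1, an extracellular matrix protein, at 32.2, 16.4 and 8.42 against 443 and 127 (-3.62). AW112010 and Ecm1 were lower in each Itgb1 iKO mouse, and Ecm1 missed the threshold without Itgb1 fl/fl mouse 2 (-2.38, edgeR adjusted p = 0.226). Ffar4, Foxq1, St3gal4 and S100a14 fell by 2.99, 2.78, 2.49 and 2.49 on the log2 scale, and each missed the threshold without at least 1 of the Itgb1 fl/fl mice.

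The genotype effect in double-positive cells was tested against that in comparison AT2 cells of the same mice. Of 6151 genes, 164 (2.67%) had a more positive and 38 (0.618%) a more negative Itgb1 iKO effect in double-positive cells (edgeR adjusted p under 0.05), 3.28% in all. In the comparison AT2 cells alone 53 (0.68%) of 7795 genes rose and 50 (0.641%) fell, 1.32% in all, and the mice of the groups did not overlap in 15.2%. Leaving out 1 mouse gave 101 to 193 more positive and 8 to 34 more negative genes in the test of the difference, fewest without Itgb1 iKO mouse 2. Surfactant (13 of 15) and MHC class II genes (6 of 7) were among the first, with H2-Aa at 3.63 and Cd74 at 2.47. Comparison AT2 cells were chosen by Sftpc in both genotypes, so the surfactant count repeats that in double-positive cells and is no separate result. Hbegf (2.28, edgeR adjusted p = 0.0141) and Errfi1 (2.34, edgeR adjusted p = 0.000103) were more positive too, Hbegf not without Itgb1 fl/fl mouse 3 (1.25, edgeR adjusted p = 0.383).

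Anxa1 and Lgals3 went in opposite directions in the 2 kinds of cell, while Krt7 passed the test in comparison AT2 cells alone. Anxa1, Lgals3 and Krt7 rose in comparison AT2 cells of Itgb1 iKO mice by 1.17, 0.94 and 1.19 on the log2 scale (edgeR adjusted p = 0.000103, 0.0176 and 0.00148). In double-positive cells they had -1.59, -2.27 and -0.45, of which the last did not pass, and the differences between the effects were -2.64, -2.86 and -1.87 (edgeR adjusted p = 0.000135, 0.00556 and 0.0238). The Itgb1 fl/fl double-positive cells used were all Sftpc-poor, so the genotype and the share of Sftpc-rich cells cannot be told apart in this test. With Sftpc-poor double-positive cells only, Anxa1 had -1.16, Lgals3 -1.98 and Krt7 -0.70, and none passed (edgeR adjusted p = 0.291, 0.241 and 0.342). The difference passed for Anxa1 and Lgals3 whichever mouse was left out, and for Krt7 not without Itgb1 fl/fl mouse 2 (0.234) or Itgb1 iKO mouse 2 (0.132). In comparison AT2 cells Lgals3 had an adjusted p of 0.174 without Itgb1 fl/fl mouse 1 and 0.062 without Itgb1 iKO mouse 2. For Areg (-0.01, edgeR adjusted p = 0.999), Cdkn1a (-1.24, edgeR adjusted p = 0.27) and Ager (1.10, edgeR adjusted p = 0.102) a difference between the effects was not shown, although without Itgb1 fl/fl mouse 3 it passed for Cdkn1a (-2.44, edgeR adjusted p = 0.00141) and Ager (1.71, edgeR adjusted p = 0.013). The p53 list had 0 of 22 with a difference. The AT2 list had 12 of 12 more positive. As comparison AT2 cells were chosen by Sftpc in both genotypes, that count repeats the one in double-positive cells and is no separate result.

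Day 21 allowed no such test, since no Itgb1 fl/fl mouse had 5 double-positive cells. In the 7 Itgb1 fl/fl cells Krt18, Sfn and Areg were at 972, 520 and 1446 CPM and in the 49 Itgb1 iKO cells at 920, 458 and 1289. Cdkn1a was at 136 and 174, Hbegf at 192 and 415, Ager at 1446 and 1198 and Cd74 at 11718 and 13532. These levels are given side by side with no test. In the Itgb1 iKO mice at day 21 (17, 6 and 11 cells), Areg was at 1322, 1274 and 1930 CPM and Hbegf at 495, 401 and 295. Mki67, a proliferation marker, was at 10.8 CPM in Itgb1 fl/fl day 7, 1.55 in Itgb1 iKO LPS day 7 and 0 in the other libraries.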

How the data were processed

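Lung cells were profiled with droplet libraries that read the 5′ end of RNA. The authors deposited raw UMI counts per gene and per hashtag, made with Cell Ranger 3.1 on mm10 (the submitters' processing notes also name Seurat 4.1.0), and the free RNA correction and cell filter of the study are not part of these counts. Every table column was used.

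A barcode counted as a cell where 700 genes or more were found and mitochondrial UMIs made up 0.1 to 15%. A cell was given to a mouse where 1 hashtag held at least 1% of tag counts and at least 4 times its background, which placed 102 of the double-positive cells, while 41 had no hashtag and 6 had several. Cells without a mouse enter the values by library and not the tests. Endothelial cells, used as the measure of free RNA for genes they do not make, had at least 2 UMIs of Cdh5 and Pecam1 together and no Epcam. Doublets were not removed. Scrublet's own threshold marked 0 to 1.55% of cells, so the highest scores (0.8% per 1000 barcodes) were taken, and these marked 2 double-positive cells.

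Levels are summed counts in CPM. The contrast with AT2 cells used libraries with at least 20 double-positive cells and genes of at least 50 CPM, with 10 CPM added. Counts per mouse (at least 5 cells) were tested with edgeR's quasi-likelihood test (TMM scaling, filterByExpr, all conditions in 1 fit, FDR 0.05), and the difference between cell kinds with mouse as a block. All mice of a group share 1 library, so p-values measure the spread between mice of that library. The genes of the rule were left out of the counts of these tests. On simulated counts for the genotype comparison in double-positive cells, 78 of 98 genes changed by 2 (log2) and 95 of 98 changed by 3 were recovered, with 13 calls among 1773 unchanged genes. All mice were simulated from a common mean profile, without the difference in Sftpc-rich cells or a library effect. The simulation therefore cannot tell how far the real calls reflect genotype. Shares have exact 95% binomial intervals, and the floor of a count of 0 was 3 UMIs.

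The members, gene lists and tests were chosen with earlier results of these data known. The text names the rule's and marker genes, genes the study discusses, the 15 furthest each way in the AT2 contrast, the 10 furthest each way in each edgeR comparison among genes whose mice did not overlap, and the most abundant genes of each list, beside some chosen after their values were seen. Versions were Python 3.11.15, numpy 2.4.6, scipy 1.17.1, pandas 2.3.3, scanpy 1.11.5, matplotlib 3.10.9, R 4.3.3, edgeR 4.0.16, limma 3.58.1 and DESeq2 1.42.0.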

Additional observations from a re-analysis of the deposited data

Results flagged for a closer look

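The genotype effect at LPS day 7 differed between double-positive and comparison AT2 cells of the same mice, by edgeR's test of the difference, in 20 genes taken as the 10 furthest each way among those whose mice did not overlap. Each value is the log2 difference between both kinds of cell in Itgb1 iKO mice less that in Itgb1 fl/fl mice, with 10 CPM added. The difference was positive for Lyz1 (6.58), Cpm (4.50), Hdc (4.09), Apoe (4.03), Ptgs1 (3.99), Lrp2 (3.75), Chia1 (3.70), Matn4 (3.46), Scgb1c1 (3.35) and Ang (2.98). None of these genes had a UMI in double-positive cells of the Itgb1 fl/fl mice used, so each value depends on the 10 CPM added. Against a floor of 3 UMIs the Itgb1 iKO level was at least 34.8-fold higher for Lyz1 and 11.7-fold for Cpm. It was at least 2.35-fold higher for Hdc, 2.04-fold for Scgb1c1 and 4.69-fold (Lrp2) to 7.55-fold (Ptgs1) for the others. The difference was negative for Spp1 (-3.89), S100a6 (-3.66), Ecm1 (-3.65), S100a14 (-3.34), Lgals3 (-3.10), Vim (-2.98), Tuft1 (-2.87), Mfge8 (-2.74), Id1 (-2.65) and Edn1 (-2.59). Spp1 had 0 UMIs in the Itgb1 iKO and 23 in the Itgb1 fl/fl double-positive cells used. The edgeR adjusted p ran from 4.66e-05 for Cpm to 0.0427 for Ecm1. Among the negative genes S100a14 and Lgals3 passed whichever mouse was left out, and each of the other 8 missed the threshold without at least 1 mouse. Without Itgb1 fl/fl mouse 2, edgeR's difference was -1.31 for Vim and -2.38 for Ecm1, against -3.29 and -4.31 with all mice, and the adjusted p was 0.614 for Vim, 0.523 for Ecm1, 0.487 for Edn1 and 0.155 for Tuft1. Without Itgb1 fl/fl mouse 3 it was 0.385 for Spp1, 0.119 for Mfge8 and 0.073 for Edn1, and Id1 had -0.01 against -3.24. Without Itgb1 iKO mouse 2, all 8 missed it, S100a6 with an adjusted p of 0.0938. Edn1 also missed it without Itgb1 iKO mouse 1, and Ecm1 and Id1 without Itgb1 iKO mouse 3. Of the positive genes, Chia1 missed it without Itgb1 fl/fl mouse 2 (adjusted p = 0.264) and Ang and Scgb1c1 without Itgb1 iKO mouse 2 (0.0528 and 0.0763). The Itgb1 fl/fl double-positive cells of this comparison were all Sftpc-poor, so these differences and the share of Sftpc-rich cells cannot be told apart.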

How the results depend on the processing

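Differences in the share of double-positive cells between genotypes (Itgb1 iKO less Itgb1 fl/fl, in percentage points) changed sign with the limits of the rule, and none of them was called. Among gated cells at day 7 (0.670) the value was -1.56 with 5 Krt8 UMIs, -2.16 with 2 Cldn4 UMIs, -3.60 in cells thinned to 3000 UMIs, -0.463 without the highest Scrublet scores and -5.09 to 3.99 with 1 mouse left out. At day 21 (0.374) it was -0.475 with 5 Krt8 UMIs and -1.24 to 1.29 with 1 mouse left out. Among double-positive and comparison AT2 cells at day 7 (1.12) it was -0.948, -1.62 and -4.49 under the first 3 settings and -4.49 to 4.22 with 1 mouse left out, and at day 21 (0.448) -0.442 with 5 Krt8 UMIs and -1.13 to 1.25. Among Sftpc-rich cells at day 21 (0.112) it was -0.763 with 5 Krt8 UMIs, -0.180 with 2 Cldn4 UMIs and -1.51 to 1.02. The Sftpc-rich difference at day 7 kept its sign under every setting, at 7.72 to 11.9 with 1 mouse left out. The cause of the changes was not tested.

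In the contrast with AT2 cells, subtracting the endothelial level gave 75 genes higher (14) and 13 lower (2). The lower count was 5 with 1 CPM added, 10 with 5 Krt8 UMIs and 4 without cells with several hashtags. With Sftpc-rich cells in the 2 Itgb1 iKO LPS libraries 5 were higher (14). For the genotypes in double-positive cells (183 higher, 66 lower), 5 Krt8 UMIs gave 111 and 35, Sftpc-poor cells 7 and 0, DESeq2 21 lower, and leaving out 1 mouse 108 to 182 and 18 to 49. In comparison AT2 cells (53 and 50), no filter on low counts gave 116 and 93, and leaving out 1 mouse 17 to 45 and 15 to 74. For the difference between both cell kinds (164 and 38), leaving out 1 mouse gave 101 to 193 and 8 to 34.

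Of the values of named genes that were counted, 1017 kept their side of the threshold, 164 missed it, 10 newly passed it, 3 moved by more than the spread and 1 reversed, which was Atf3 in Sftpc-poor cells (-0.11 against 1.20). Hopx and Aqp5 were among genes not counted, and both changed sign. Hopx (-0.80) had 0.17 in Sftpc-poor cells. Aqp5 (0.16) had -0.39 in Sftpc-poor cells, -0.12 with a hashtag at 2 times its background, -0.06 without neuroendocrine cells and -0.27 without Itgb1 fl/fl mouse 2. Without the mouse block the difference fit gave 165 genes more positive and 42 more negative, and Lyz1, Chia1, S100a6, Vim, Id1 and Krt7 missed the threshold (adjusted p = 0.0753, 0.146, 0.0730, 0.0830, 0.0540 and 0.156). No paired analysis was possible between genotypes because mouse numbers only name hashtags of different mice. Tests at day 21 and of LPS against PBS were not run, as no Itgb1 fl/fl mouse at day 21 and no PBS mouse had 5 double-positive cells, nor was the day 7 genotype test with Sftpc-rich cells only, of which Itgb1 fl/fl had 1. Leaving out neuroendocrine cells, the Sftpc-poor fit, both Sftpc shares and the comparison AT2 fit were chosen after seeing the data. With 8 to 25 cells per mouse at day 7, genes of low counts could not be tested.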

Other observations

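The 2 double-positive cells of PBS-treated Itgb1 iKO lungs were unlike each other. One, of mouse 3, held 9.54% of its UMIs in Sftpc, with 9286 UMIs in all, 5 of Krt8 and 1 of Cldn4. The other carried no hashtag and had 10333 UMIs, 84 of Cldn4, 53 of Krt18, 11 of Krt8, none of Sftpc, Sfn or Areg, and 2.83% in the neuroendocrine list.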
